A study of Arabidopsis thaliana with 4 samples.

Results

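The genes described here are 42 nuclear genes of Arabidopsis thaliana whose signal was clearly lower in seedlings of the css1 mutant than in the wild type. They were chosen by their values: for each, the higher css1 value lay at least 1 log2 unit below the lower wild-type value. Of 13367 probe sets that the annotation gives 1 nuclear gene, 51 (0.382%) met this distance, and of all 22746 probe sets 106 did (0.466%). Of those, 1 was left out for its gene family symbol (CYP71B22) and 8 by locus, most of them tied to low oxygen or to defence, which left 42 genes, each with 1 probe set that met the rule. The rule used the css1 to wild-type difference, so the differences of the 42 genes are a description and carry no test. A further 53 probe sets met the distance but are not listed in the annotation, and 2 were annotated with several genes. They are not named here.

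Whole seedlings of the css1 mutant were compared with Columbia wild type, both 9 days old, with 2 independent RNA samples for each genotype and a 1-colour array for each sample. Both genotypes were kept in continuous light on B5 medium containing 2% sucrose, so the controls had the same sugar supply. Values are log2 signals that the authors computed with RMA, a method that corrects the background, normalizes the arrays together and combines the probes of a probe set. The labels do not state the gene affected in css1 or how many lines stand behind it, and its transcript is not analysed here. As background, a css1 mutant is known with a lesion in a nuclear gene for a mitochondrial intron maturase and with altered carbon metabolism. Plant mitochondria depend on such nuclear factors to splice transcripts of respiratory chain subunits, and seedlings with impaired respiration are known to change the expression of many nuclear genes. A whole seedling mixes many cell types, so fewer cells of a type and less RNA per cell cannot be told apart.

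The 4 arrays had medians between 6.32 and 6.37, and precision is limited by how few arrays there are. Across probe sets the correlation was 0.996 between the wild-type arrays and 0.997 between the css1 arrays, as a description. Across 22746 probe sets the fit called 1823 lower (8.01%) and 1736 higher (7.63%) in css1, 15.6% in either direction (limma, Benjamini-Hochberg adjusted p under 0.05). All 42 genes passed that threshold, which the choice of the genes brings about and from which nothing is read. Of the 53 marker genes listed for tissues, 11 had a named probe set. The green shoot was represented by RCA, the activase of Rubisco, at 13.68 and 13.73 in wild type and 13.50 and 13.45 in css1. No listed general root marker had a named probe set. The root hair expansins EXPA7 and EXPA18 were both measured and did not pass (−0.33, adjusted p = 0.123, and −0.51, adjusted p = 0.0858). Their summed signal (log2 of the sum) was 7.95 to 8.27 in wild type and 7.66 to 7.73 in css1. The 3 measured genes of the stomatal lineage summed to 6.70 to 6.79 in wild type and 6.42 to 6.68 in css1, and 1 of them, FMA, was called lower (−0.37, adjusted p = 0.0453), which no longer held when any of the 4 arrays was dropped (adjusted p = 0.0939 to 0.254). The 4 measured pollen markers summed to 5.98 to 6.09 in wild type and 5.99 to 6.17 in css1, and none of the 4 passed. The 1 measured seed marker, the oleosin-type gene AT3G01570, was at 4.65 and 4.51 in wild type and 5.53 and 5.22 in css1. It was called higher (0.79, adjusted p = 0.0161), but not with css1 replicate 1 dropped (0.64, adjusted p = 0.0837) or wild type replicate 2 dropped (0.72, adjusted p = 0.0562). The part of these tissues in the differences of the 42 genes was not tested.

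The 42 genes differed by −3.38 to −1.08 log2 units, with a median of −1.38, against a median of −0.03 over all 22746 probe sets. As folds, 4 genes were at least 4-fold lower, 9 were 3- to 4-fold lower and 29 were 2- to 3-fold lower. The reference names 6 of the 42 beyond their locus code (85.7% have the code only, against 88.9% of all measured nuclear loci). For the others, protein families are given from general knowledge of the locus and only where well known. The median SD between replicates was 0.08 in wild type and 0.09 in css1, against 0.08 and 0.07 over the measured nuclear loci. The rule disfavours wide spreads, so nothing is read from the replicate spread of the 42 genes. In 37 genes the wild-type arrays lay within 0.3 log2 units of each other, and in 36 the css1 arrays did. Only AT3G60420 and AT2G17850 had replicates 0.5 or more apart in either genotype.

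**Figure D1:**
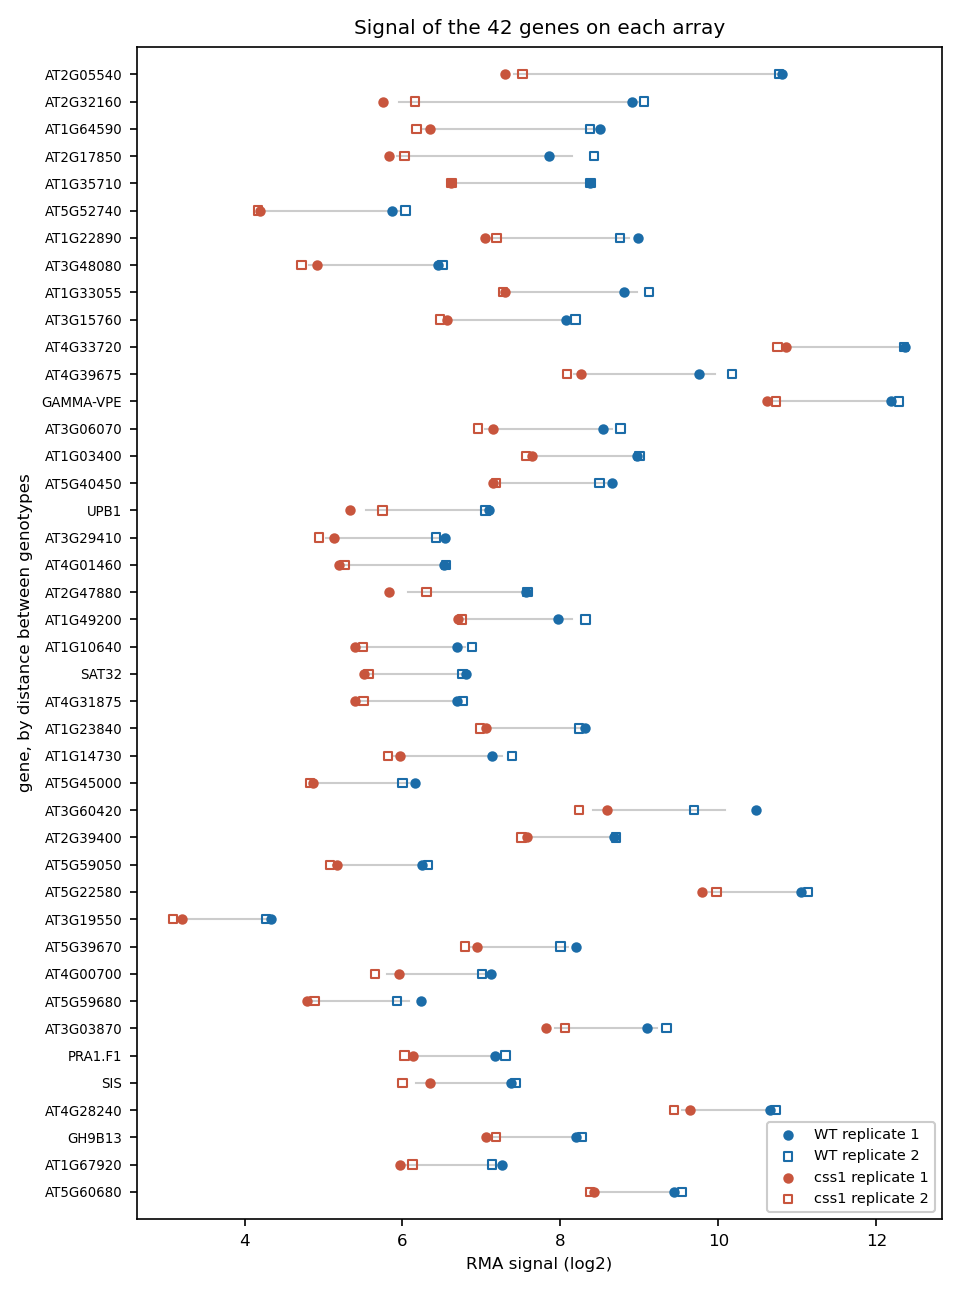
RMA signal (log2, x axis) of the 42 genes on each of the 4 arrays, with genes ordered from the widest to the narrowest distance between genotypes. Blue symbols are wild type, red are css1, filled circles are replicate 1, open squares are replicate 2, and the grey line joins the genotype means. The distance runs from 3.24 for AT2G05540 to 1.01 for AT5G60680, and the rule keeps the genotypes apart in every row.

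AT2G05540 encodes a glycine-rich protein, a class known mostly from plant cell walls and stress responses. Its signal was 10.80 and 10.76 in wild type and 7.29 and 7.52 in css1. Among probe sets lower in css1 this was the widest distance between genotypes, and the mean was 10.4-fold lower (10.78 ± 0.03 against 7.41 ± 0.16, SD, n = 2 each). AT2G05540 lies beside other glycine-rich protein genes, and the measured neighbours on either side were not lower with it. AT2G05530 was at 4.94 and 4.91 in wild type and 5.09 and 5.09 in css1 (0.17, SE 0.08, adjusted p = 0.235). AT2G05580 was at 5.50 and 5.37 against 5.46 and 5.54 (0.07, SE 0.09, adjusted p = 0.681). Both had low signals in both genotypes, below the median of every array.

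Besides AT2G05540, 3 of the genes act at the cell wall or outside the cell. AT4G33720, for a secreted protein with a CAP domain of the PR-1 type, gave 12.37 and 12.35 in wild type and 10.86 and 10.75 in css1. Its replicates differed by 0.02 and 0.11, and the mean was 2.94-fold lower. AT1G10640, for a polygalacturonase-type enzyme that acts on pectin, gave 6.69 and 6.88 against 5.40 and 5.50. GH9B13, for a glycosyl hydrolase of family 9, the family of plant endoglucanases, gave 8.20 and 8.27 against 7.05 and 7.18, close to the edge of the rule. Next to AT4G33720 along the chromosome, AT4G33710 of the same CAP type did not pass (−0.10, adjusted p = 0.631). On the other side AT4G33730, also of this type, fell by 0.70 (adjusted p = 0.0357), but its adjusted p was 0.172 and 0.154 with css1 replicate 1 or 2 dropped.

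Among metabolic enzymes, AT2G32160, for a methyltransferase-type protein, had the second widest distance among probe sets lower in css1. It gave 8.90 and 9.06 in wild type and 5.75 and 6.16 in css1, an 8.13-fold lower mean (8.98 ± 0.11 against 5.95 ± 0.29, SD, n = 2 each). The adjacent gene AT2G32170, of the same methyltransferase type, gave 8.53 and 8.50 in wild type and 8.55 and 8.32 in css1 and did not pass (−0.09, SE 0.11, adjusted p = 0.642). The adjacent AT2G32150 did not pass either (−0.36, adjusted p = 0.0837). At 3 places from AT2G32160, AT2G32190 rose from 5.11 and 4.79 to 6.19 and 6.39 (1.34, SE 0.14, adjusted p = 0.00520), a call that held without each array in turn. Genes at this site thus differed between genotypes in opposite directions.

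AT3G60420, of the phosphoglycerate mutase family, gave 10.48 and 9.69 in wild type and 8.59 and 8.23 in css1. Its wild-type arrays lay 0.79 apart, the widest replicate difference among the 42 genes. A second probe set of this gene gave 2.95 and 3.13 in wild type and 2.92 and 2.68 in css1 (−0.25, adjusted p = 0.235), close to the lowest value on the arrays (1.93). This signal was too low in both genotypes to show a difference of the size seen with the first probe set. AT3G60420 was the only one of the 42 genes measured by more than 1 probe set with a single gene. AT3G29410, for a terpene synthase-type enzyme, gave 6.54 and 6.42 against 5.13 and 4.94. AT2G39400, for an alpha/beta hydrolase of the lysophospholipase type, gave 8.68 and 8.70 against 7.58 and 7.51. Its adjacent relative AT2G39410 fell by 0.48 (adjusted p = 0.0210), while the relative AT2G39420 rose by 0.69 (adjusted p = 0.0202). Neither passed with css1 replicate 1 dropped (adjusted p = 0.139 and 0.0649), with css1 replicate 2 dropped (0.110 and 0.131) or with wild type replicate 2 dropped (0.0591 and 0.0643).

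Redox and metal-handling proteins made up 6 of the genes, with differences of −2.22 to −1.37 and a median of −1.64. AT1G64590, for a short-chain dehydrogenase-type protein, gave 8.50 and 8.37 in wild type and 6.35 and 6.18 in css1, 4.51-fold lower. AT2G17850, for a rhodanese-type protein, a fold found in sulfur transferases, gave 7.86 and 8.43 against 5.83 and 6.02, 4.65-fold lower with the wild-type arrays 0.57 apart. AT2G47880, of the glutaredoxin family of small thiol oxidoreductases, gave 7.56 and 7.58 against 5.82 and 6.30. AT1G14730, for a membrane electron carrier of the cytochrome b561 family, gave 7.14 and 7.38 against 5.97 and 5.82. AT1G03400, for an oxygenase-type enzyme dependent on iron and 2-oxoglutarate, gave 8.97 and 9.00 against 7.64 and 7.56, whereas 2A6, the adjacent gene for an oxygenase of the same class, rose by 0.58 (SE 0.11, adjusted p = 0.0256). The adjusted p of 2A6 was 0.144 and 0.0899 with css1 replicate 1 or 2 dropped, and 0.0799 with wild type replicate 2 dropped.

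AT5G52740, for a protein with a heavy metal-associated domain, gave 5.87 and 6.04 in wild type and 4.19 and 4.17 in css1, with the css1 signal under the 30th percentile of mean signal (4.73). It lies in a row of genes of this kind. AT5G52760, left out by the rule although it met the distance, gave 9.55 and 8.89 against 7.08 and 6.68. AT5G52750 between them fell by 0.79 (SE 0.13, adjusted p = 0.0180) and AT5G52720 by 0.60 (SE 0.13, adjusted p = 0.0347). Neither passed with css1 replicate 1 dropped (adjusted p = 0.0633 and 0.110) or css1 replicate 2 dropped (0.119 and 0.195), nor did AT5G52720 with wild type replicate 1 dropped (0.0746). The differences of AT5G52750 stayed between −0.92 and −0.65 over the alternatives tried. Of the other measured genes within 3 places of AT5G52740, AT5G52770 (−0.04, adjusted p = 0.839) and AT5G52710 (0.08, adjusted p = 0.576) did not pass. How far related transcripts share signal on these probe sets was not tested.

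Signalling and defence proteins made up 6 of the genes, with differences of −1.76 to −1.15. AT1G35710, for a leucine-rich repeat receptor kinase, a class of surface receptors, gave 8.37 and 8.38 in wild type and 6.62 and 6.62 in css1. Its replicates were closer than those of any other of the 42 genes, with an SD of 0.01 or less in each genotype, and the mean was 3.38-fold lower. AT5G59680, for another receptor kinase of this class, gave 6.23 and 5.93 against 4.79 and 4.88. The gene beside it, AT5G59670, is of the same class and met the distance but was left out by the rule, with 6.74 and 5.72 against 3.20 and 3.59. Further along the same row, AT5G59660 (−0.11, adjusted p = 0.668) and AT5G59650 (−0.035, adjusted p = 0.881) did not pass, at low signals in both genotypes.

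AT3G48080, for a lipase-like protein of the EDS1 type, a regulator of immune signalling, gave 6.45 and 6.51 in wild type and 4.92 and 4.72 in css1. AT5G45000, for a protein with a TIR domain as found in intracellular immune receptors, gave 6.16 and 6.0 against 4.86 and 4.83. AT5G39670, for a calcium-binding protein with EF-hands, gave 8.20 and 8.0 against 6.94 and 6.79. AT4G28240, of a wound-responsive protein family, gave 10.66 and 10.72 against 9.64 and 9.44, only just inside the rule. EXPB3, the adjacent gene for a beta-expansin, fell by 0.66 (adjusted p = 0.0170), but its adjusted p was 0.0759 and 0.124 with css1 replicate 1 or 2 dropped. The reference names 8 measured calmodulin-like genes, which encode EF-hand proteins as AT5G39670 does. They are too few to set against the 8.01% called lower and 7.63% called higher over all probe sets. Limma called 0 of the 8 lower (2 at an unadjusted p under 0.05, CML38 and CML30) and 3 higher. These were CML23 (1.22, adjusted p = 0.00804), AT1G76640 (1.14, adjusted p = 0.00714) and CML41 (1.05, adjusted p = 0.0108), and CML41 did not pass with css1 replicate 1 or 2 dropped (0.0649 and 0.0852).

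The vacuole and membrane traffic were represented by 4 genes. GAMMA-VPE encodes a vacuolar processing enzyme, a cysteine protease that matures vacuolar proteins and takes part in programmed cell death. It gave 12.18 and 12.29 in wild type and 10.61 and 10.73 in css1, 2.96-fold lower. Of its 3 measured relatives, BETA-VPE, best known from seeds, rose from 6.01 and 6.33 to 7.89 and 7.69 (1.62, SE 0.14, adjusted p = 0.00325). That call held under every alternative tried (adjusted p = 0.00220 to 0.0376). ALPHA-VPE (−0.36, adjusted p = 0.174) and DELTA-VPE (0.30, adjusted p = 0.203) did not pass.

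PRA1.F1, for a prenylated RAB acceptor, a small membrane protein of vesicle traffic, gave 7.18 and 7.31 in wild type and 6.14 and 6.03 in css1. Among its 10 measured relatives only PRA1.G2 passed, falling from 7.37 and 7.46 to 6.50 and 6.29 (−1.02, SE 0.11, adjusted p = 0.00542), and this call held under every alternative tried (adjusted p = 0.00410 to 0.0453). The other 9 lay between −0.26 and 0.11. AT5G40450, for a protein linked to the shape of the vacuole, gave 8.65 and 8.50 against 7.15 and 7.19. AT4G00700, for a membrane protein with C2 domains, gave 7.12 and 7.01 against 5.95 and 5.65, its css1 arrays 0.30 apart.

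**Figure D2:**
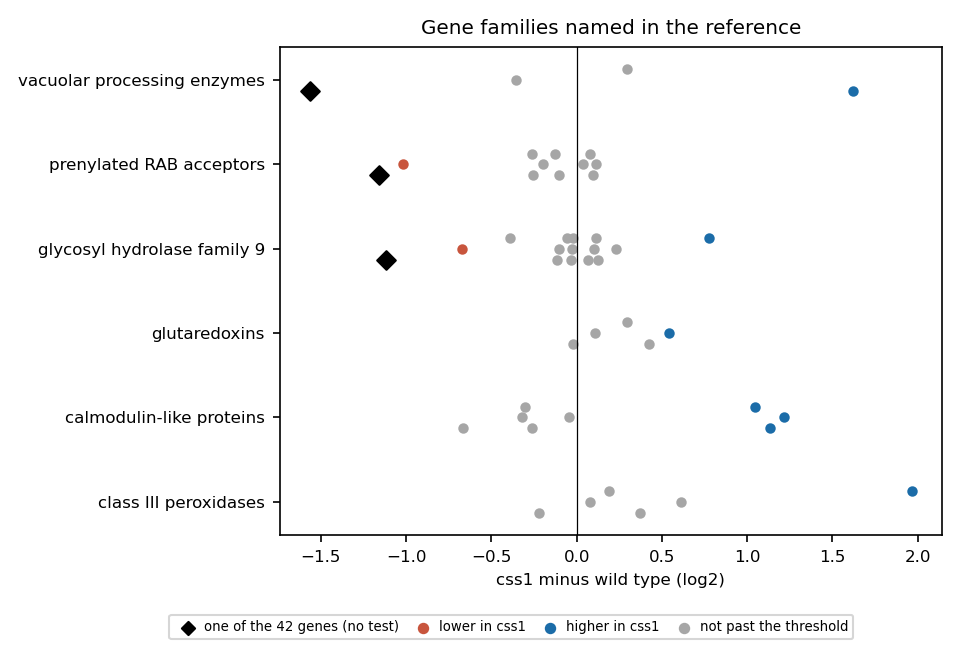
Difference between css1 and wild type (log2, x axis) for measured genes of 6 families that the reference names (y axis). Black diamonds are GAMMA-VPE, PRA1.F1 and GH9B13, given without a test, and circles are their relatives and those of other genes described, red or blue where limma called them lower or higher in css1. GAMMA-VPE at −1.57 and BETA-VPE at 1.62 lie on opposite sides of 0.

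In family 9 of the glycosyl hydrolases, 14 relatives of GH9B13 were measured and 12 did not pass. GH9B8 fell by 0.67 (adjusted p = 0.0106) and GH9A3 rose by 0.78 (adjusted p = 0.0138). The adjusted p of GH9B8 was 0.0792 and 0.0643 with css1 replicate 1 or 2 dropped, and that of GH9A3 was 0.0736 with css1 replicate 1 dropped. The 5 glutaredoxins that the reference names, relatives of AT2G47880, included none that fell by limma. Glutaredoxin genes listed by locus code only, as AT2G47880 is, were not counted, so closer relatives may be missing here. GRXC2 rose by 0.54 (adjusted p = 0.0269), but its adjusted p was 0.106 and 0.172 with css1 replicate 1 or 2 dropped and 0.0756 with wild type replicate 2 dropped. Limma thus called lower 0 of 3 measured relatives of GAMMA-VPE, 1 of 10 of PRA1.F1 and 1 of 14 of GH9B13. It called lower 0 of 5 named relatives of AT2G47880 and 0 of 8 calmodulin-like genes. In the same order, 1, 0, 1, 1 and 3 were called higher. These counts are too small to set against the 8.01% called lower and 7.63% called higher over all probe sets. The counts of 0 lower for relatives of GAMMA-VPE and AT2G47880 were also 0 at an unadjusted p under 0.05.

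Regulators and proteins named for salt responses made up 5 of the genes. UPB1 (UPBEAT1) encodes a bHLH factor known to set the balance of reactive oxygen species in the root tip by repressing peroxidase genes. It gave 7.09 and 7.05 in wild type and 5.34 and 5.75 in css1, 2.88-fold lower. AT4G01460, for another factor of the bHLH type, gave 6.53 and 6.55 against 5.19 and 5.26. Both stayed among the 42 genes because the rule left out families by symbol and neither symbol names the family. Of 6 measured peroxidases that the reference numbers as such, AT5G64120 (peroxidase 71) rose from 8.25 and 7.97 to 10.07 and 10.08 (1.97, SE 0.12, adjusted p = 0.00137), and that call held under every alternative tried (adjusted p up to 0.0282). The other 5 peroxidases did not pass, with differences of −0.22 to 0.61. A count of 1 in 6 is too small to set against the 7.63% called higher over all probe sets. Whether any of the 6 peroxidases is a target of UPB1 was not tested.

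AT1G49200, of a RING-type ubiquitin ligase family, gave 7.97 and 8.32 in wild type and 6.71 and 6.75 in css1. Its relative AT1G49210, 2 places away, fell by 0.84 (adjusted p = 0.0263), but its adjusted p was 0.137 and 0.0830 with css1 replicate 1 or 2 dropped and 0.0709 with wild type replicate 2 dropped. AT1G49220 was at −0.29 (adjusted p = 0.067). SAT32, named for salt tolerance, gave 6.81 and 6.76 against 5.51 and 5.57. SIS, named for induction by salt, gave 7.38 and 7.43 against 6.35 and 6.0. The genes carrying these salt-related names were thus 2.37-fold and 2.34-fold lower in seedlings grown without a stated salt treatment.

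AT1G33055 and AT4G39675 encode small proteins that belong, from knowledge of the locus, to the core response of Arabidopsis to low oxygen. They remained here because the rule removed other low-oxygen genes by locus but not these. AT1G33055 gave 8.80 and 9.13 in wild type and 7.29 and 7.27 in css1. AT4G39675 gave 9.75 and 10.17 against 8.27 and 8.08. Of the genes that the rule removed, AT4G27450 (11.23 and 11.94 against 9.43 and 9.55), AT1G19530 (8.12 and 8.32 against 6.13 and 5.98), AT5G10040 (6.50 and 7.11 against 4.02 and 4.84) and AT5G66985 (8.84 and 9.02 against 7.57 and 7.69) are of the same response. In all 6, wild type replicate 2 was the higher wild-type array, as it was in 26 of the 42 genes. The share over all probe sets was not counted, so nothing is read from this.

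No role is given here for 11 of the genes, whose differences ran from −1.75 to −1.08. AT1G22890 had the widest distance among them, with 8.98 and 8.75 in wild type and 7.04 and 7.19 in css1. AT3G15760 gave 8.07 and 8.19 against 6.57 and 6.47, and AT3G06070 gave 8.53 and 8.76 against 7.14 and 6.95. These 3 were 3.03- to 3.37-fold lower. AT1G23840 gave 8.31 and 8.24 against 7.06 and 6.98, and its adjacent gene AT1G23830 fell by 0.63 (adjusted p = 0.0149), but its adjusted p was 0.0816 and 0.114 with css1 replicate 1 or 2 dropped. AT4G31875 gave 6.69 and 6.77 against 5.40 and 5.51. AT3G19550 gave 4.34 and 4.28 against 3.21 and 3.10, and was the only one of the 42 genes with a wild-type mean under the 30th percentile of mean signal, so the size of its difference is uncertain. The remaining 5 genes, AT5G59050, AT5G22580, AT3G03870, AT1G67920 and AT5G60680, were 2.12- to 2.43-fold lower.

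At the edge of the rule, GH9B13, AT1G67920 and AT5G60680 had the narrowest distances, each −1.01. AT1G67920 gave 7.26 and 7.14 in wild type and 5.97 and 6.13 in css1, and AT5G60680 gave 9.43 and 9.54 against 8.43 and 8.38. Just outside lay AT5G43520 (6.56 and 6.31 against 5.32 and 5.21), AT1G32700 (9.95 and 9.92 against 8.94 and 8.87) and AT3G53980 (9.78 and 9.98 against 8.59 and 8.81), with distances of −0.99, −0.98 and −0.97. Genes on both sides of the edge had like values, and 14 of the 42 genes lay within 0.1 log2 units of it.

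**Figure D3:**
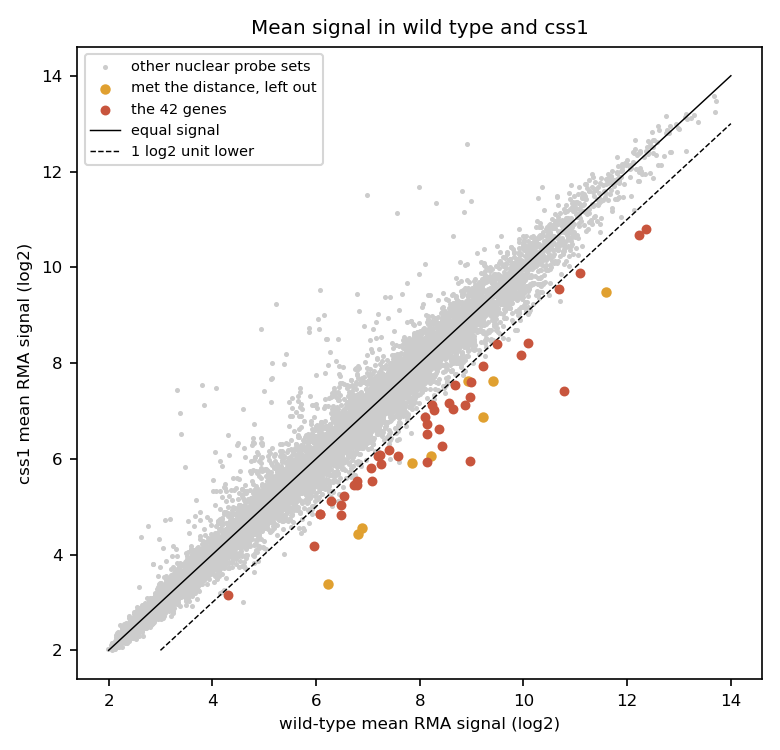
Mean RMA signal (log2) in wild type (x axis) and css1 (y axis) of the 13367 probe sets with 1 nuclear gene, each mean of 2 arrays. Red points are the 42 genes, orange points the 9 genes that met the distance and were left out, the solid line marks equal signal and the dashed line a css1 mean 1 log2 unit lower. The 42 genes lie below the dashed line over wild-type means from 4.31 to 12.36.

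The 42 genes had a median wild-type mean of 8.14, against 5.97 for the measured nuclear loci. The rule used the wild-type values, and a fall of at least 1 log2 unit needs signal above the lowest values. Nothing is therefore read from this difference in signal. Length and transcript number, which the rule did not use, were compared next, as a description and without matching for signal. In the reference, the 42 genes had a median length of 1453 bp, introns included, against 2111 bp for the 13217 measured nuclear loci, and 12 of them (28.6%) were shorter than 1000 bp, against 13%. A single RefSeq transcript was listed for 28 of them (66.7%), against 54.5% of all. The shortest gene spanned 466 bp and the longest 11239 bp, so short genes were common among them without being the rule.

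The genes lying near the 42 genes on the chromosome were also read, leaving out neighbours that met the distance themselves. Within 3 protein-coding places on either side, 120 other genes had a named probe set, and limma called 13 lower (10.8%) and 11 higher (9.17%) in css1. Over the 13166 measured nuclear loci that did not meet the distance, these 120 included, 6.46% were lower and 7.0% higher. Of the 44 that lay directly beside one of the 42 genes, 7 were lower (15.9%) and 4 higher (9.09%), with a median difference of −0.07. Besides those given above, the genes called lower beside one were AT1G33050 (−0.61, adjusted p = 0.0138, next to AT1G33055) and AT3G15770 (−0.67, adjusted p = 0.0212, next to AT3G15760). Besides 2A6, those called higher included AT1G64600 (0.45, adjusted p = 0.0262, next to AT1G64590) and AT2G39390 (0.57, adjusted p = 0.0186, next to AT2G39400). The last one called higher was AT5G60670, next to AT5G60680 (0.44, adjusted p = 0.0428). With css1 replicate 1 or 2 dropped, a single css1 array remains, and calls were lost among these neighbours as over all probe sets. That loss is therefore not read as a property of the neighbours. The differences of the 120 ran from −0.84 to 1.34, without AT5G59670 and AT5G52760, neighbours that met the distance themselves and were not counted. The widest rise besides that of AT2G32190 was in AT5G02050, 3 places from SIS, from 7.76 and 7.76 to 8.91 and 8.82 (1.11, adjusted p = 0.00264), which held under every alternative tried.

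**Figure D4:**
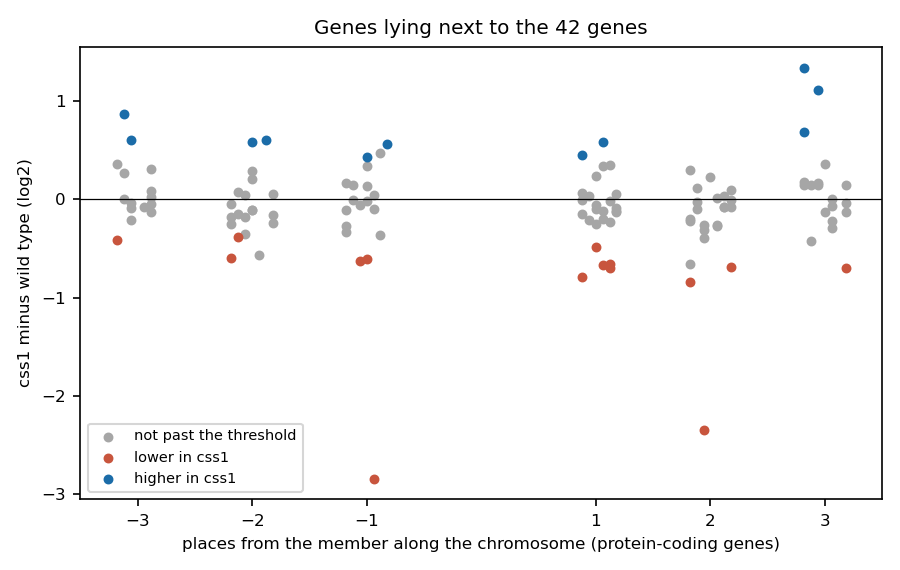
Difference between css1 and wild type (log2, y axis) of measured genes up to 3 protein-coding places before (negative) or after (positive) one of the 42 genes (x axis, points spread sideways for visibility). Red and blue points passed limma's threshold as lower or higher in css1. The points at −2.84 and −2.34 are AT5G59670 and AT5G52760, which met the distance themselves and were left out, and the other neighbours lie between −0.84 and 1.34.

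The listed genes of nutrient, hormone, clock and light pathways were sparsely covered: 11 of 143 had a named probe set, and none of the 42 genes was among them. Limma called 1 of the 11 lower and 1 higher. Over all probe sets the shares were 8.01% and 7.63%, and 11 genes are too few to set against them. LHCB4.3, for a minor antenna protein of photosystem II, fell from 10.15 and 10.04 to 9.43 and 9.57 (−0.60, adjusted p = 0.0165), while LHCB4.1 (−0.11, adjusted p = 0.611) and LHCB4.2 (−0.12, adjusted p = 0.865) did not pass. AT1G47400, for a small peptide of the iron deficiency response, rose from 7.73 and 6.60 to 8.50 and 9.21 (1.69, adjusted p = 0.0423). Neither LHCB4.3 nor AT1G47400 passed with css1 replicate 1 dropped (adjusted p = 0.109 and 0.0928) or css1 replicate 2 dropped (0.0850 and 0.205), nor did AT1G47400 with wild type replicate 2 dropped (0.0835). BHLH101, a regulator of iron uptake, was at −0.57 (adjusted p = 0.425). The gibberellin receptor genes GID1A (0.24, adjusted p = 0.295), GID1B (0.26, adjusted p = 0.124) and GID1C (−0.35, adjusted p = 0.103), the cytokinin response regulators ARR15 (0.01, adjusted p = 0.954) and RR16 (−0.22, adjusted p = 0.515) and the clock gene GI (0.12, adjusted p = 0.703) did not pass. The lists for aquaporins, nitrogen, phosphate, sulfur, brassinosteroid synthesis and dark-induced genes had no named probe set and are not analysed here.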

How the data were processed

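The deposited values are log2 signals of 22810 probe sets. The submitters' processing notes name RMA, without a version, as what the authors used, and no further logarithm or scaling was applied. The 64 control probe sets were set aside, which left 22746. The probe annotation gave 1 gene for 13513 probe sets, of which 13436 matched a locus of the RefSeq gene table (TAIR10.1) by gene ID, and did not list 8730. Coordinates are not given, since the files name no build, and sequences are not used here.

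Genes were compared with limma 3.58.1 in R 4.3.3 (functions lmFit and eBayes; 1 term, for genotype; two-sided p-values with Benjamini-Hochberg adjustment over all 22746). The fit was checked on simulated data. A locus with several probe sets was represented by the one with the highest mean. A fold is taken from the difference between mean log2 signals. The labels call the RNA samples independent biological samples.

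The 42 genes, the gene lists and the rule for naming genes were chosen with earlier results of these data known. The rule gave values on each array for the 25 genes with the widest distance, those at the edge and the first of each family, and for up to 3 relatives or 4 list members with the smallest p. Values are also given for some of the 42 genes outside that rule, such as AT5G59680 and AT3G19550. Protein roles, the 6 families, the neighbours and those of them named outside the family of an adjacent gene (such as AT2G32190, AT5G02050 and EXPB3) were chosen after values were seen; family rules on descriptions could not be applied, since the tables hold none. Alternatives were median centring, a second quantile normalization, dropping probe sets whose mean signal was under the 30th percentile, trend, the replicate number as a block, other distances and leaving out each array. Leaving out an array leaves a single array in that genotype, and calls then fell over all probe sets, most without a css1 array.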

Additional observations from a re-analysis of the deposited data

How the results depend on the processing

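All 42 genes also passed limma's threshold with median centring, a second quantile normalization, trend, the replicate block and a fold of at least 2. With the filter on dim probe sets, AT3G19550 was not tested and 41 passed. Without css1 replicate 1 or css1 replicate 2, 41 passed and AT3G60420 did not. Rules other than the main one gave other sets: 88 genes by a mean difference at or under −1, 10 by a distance at or under −1.5, and 63 to 85 with 1 array left out, which loosens the rule. Centring left 35 genes, removing AT3G03870, PRA1.F1, SIS, AT4G28240, GH9B13, AT1G67920 and AT5G60680, and a second quantile normalization kept 40 of the 42. Over all probe sets, a fold of at least 2 left 210 lower and 359 higher, and leaving out 1 array gave 224 to 1493 lower and 336 to 1586 higher, fewest without a css1 array. Of the neighbours within 3 places, 0 to 11 were lower and 2 to 13 higher with 1 array left out, and of those directly beside, 0 to 7 and 0 to 5, alternatives chosen after seeing the data. The listed pathway genes gave 0 to 2 lower and 0 to 1 higher by limma (1 to 3 and 1 to 4 at an unadjusted p under 0.05), and a fold of at least 2 left 0 lower, since LHCB4.3 differed by less. The labels do not say whether same-numbered arrays share more than a number. Across probe sets their deviations correlated at −0.01, which does not settle it for single genes. With the replicate number as a block, 635 probe sets were lower and 629 higher, 5 and 4 of the neighbours within 3 places, 3 and 1 of those directly beside, and 0 and 0 of the listed pathway genes by limma (1 and 1 at an unadjusted p under 0.05). Named genes whose calls were also lost with the block were AT4G33730, AT2G39410, AT2G39420, AT5G52720, EXPB3, CML41, GH9A3, GRXC2, AT3G15770, FMA, LHCB4.3 and AT1G47400. So were the calls of AT1G64600, AT2G39390 and AT5G60670. The call of FMA was also lost with median centring and with trend. The number of arrays and signals near the floor limit what can be seen.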
